A study of Mus musculus with 40 samples.

Results

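Expression of 10 genes of sodium transport in the distal nephron and of its control was examined in kidneys of mice with and without endothelial EGFR. The 10 genes, Slc12a1, Umod, Slc12a3, Scnn1a, Scnn1b, Scnn1g, Nr3c2, Sgk1, Wnk1 and Wnk4, were chosen by name from the 55382 genes of the kidney count table, and 4 of them, Nr3c2, Sgk1, Wnk1 and Wnk4, were also read in aorta. RNA of 20 kidneys and 20 aortas was sequenced, with 5 libraries for each genotype and diet in each tissue. EC-EGFR-KO mice came from EGFR flox/flox mice mated with B6.Cg-Tg(Tek-cre)1Ywa mice, and EC-EGFR-WT controls carried the Cre under the Tie2 promoter (Tek encodes Tie2) but no loxP sites. This Cre is not inducible, and it is known to be active in blood-forming cells as well as in endothelium. Mice received a mixed diet at 5 weeks of age and then, from 6 weeks of age, the standard diet (SFD, 10% of energy from fat) or the high fat diet (HFD, 60%) for 18 weeks. The sex of the animals and the hour of tissue collection were not given in the sources used here, and it was not stated whether the aorta and kidney libraries come from the same animals.

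The distal nephron decides how much of the filtered sodium leaves with the urine. In the thick ascending limb, sodium enters the cell with potassium and chloride through the bumetanide-sensitive cotransporter encoded by Slc12a1, and the same cells secrete uromodulin, the product of Umod. In the distal convoluted tubule the thiazide-sensitive sodium-chloride cotransporter encoded by Slc12a3 takes over, and in the connecting tubule and collecting duct sodium enters through the epithelial sodium channel, built from the alpha, beta and gamma subunits encoded by Scnn1a, Scnn1b and Scnn1g. Aldosterone acts through the mineralocorticoid receptor, encoded by Nr3c2, and raises the kinase SGK1, which keeps the channel at the cell surface, while the kinases WNK1 and WNK4 set the phosphorylation, and so the activity, of both cotransporters.

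For 9 of the 10 genes, RefSeq (GRCm38.p6) gave windows of 250 bases before to 50 bases after a start site, 14 windows in all. They were searched on both strands for the TATA box (TATAAA), the CCAAT box (CCAAT), an E-box (CACGTG) and a palindrome of steroid receptor elements (GNACANNNTGTNC). Of all 32851 mouse promoters in the table, 13.6%, 37.4%, 7.15% and 0.475% held these letters, respectively. Of the 14 windows, 6 (42.9%) held a CCAAT box, belonging to 5 of the 9 genes, and 3 (21.4%) held a TATA box, those of Slc12a3 and Sgk1. The E-box and the palindrome were each in 1 window (7.14%), that of Sgk1. The windows of Slc12a1 and Slc12a3 are shown because these genes moved in opposite directions with diet, and a window of Sgk1 because it was the only one with the palindrome. Capitals mark the matched letters, on either strand; no matches overlapped.
Slc12a1 (chr2:125152350-125152649, plus strand): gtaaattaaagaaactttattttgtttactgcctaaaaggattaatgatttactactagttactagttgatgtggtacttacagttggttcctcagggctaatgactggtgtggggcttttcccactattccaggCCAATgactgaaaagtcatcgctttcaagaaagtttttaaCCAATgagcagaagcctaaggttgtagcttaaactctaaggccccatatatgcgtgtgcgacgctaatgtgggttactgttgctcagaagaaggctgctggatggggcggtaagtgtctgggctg
Slc12a3 (chr8:94328958-94329257, plus strand): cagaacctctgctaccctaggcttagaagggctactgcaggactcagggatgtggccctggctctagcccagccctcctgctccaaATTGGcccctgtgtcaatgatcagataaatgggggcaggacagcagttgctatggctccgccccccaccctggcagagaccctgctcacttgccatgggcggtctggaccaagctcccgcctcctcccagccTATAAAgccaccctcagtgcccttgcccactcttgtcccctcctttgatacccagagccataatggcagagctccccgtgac
Sgk1 (chr10:21993640-21993939, plus strand): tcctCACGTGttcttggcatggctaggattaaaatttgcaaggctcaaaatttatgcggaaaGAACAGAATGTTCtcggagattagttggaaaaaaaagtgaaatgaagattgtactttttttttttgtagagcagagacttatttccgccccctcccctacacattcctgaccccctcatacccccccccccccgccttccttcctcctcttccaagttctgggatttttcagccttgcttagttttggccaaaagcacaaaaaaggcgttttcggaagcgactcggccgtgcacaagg
The CCAAT boxes of Slc12a1 lie at positions -115 to -111 and -75 to -71 from the start site. In Slc12a3 the TATA box lies at -32 to -27 and a CCAAT box, on the minus strand, at -164 to -160. In this window of Sgk1, 1 of 6 listed for the gene, the palindrome lies at -188 to -176 and the E-box at -246 to -241. A match describes letters in the window and is not a measured binding site.

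Total counts ranged from 19643033 to 48833447 per kidney library and from 17520161 to 36452741 per aorta library. Values are given as FPM, fragments per 1000000 of the TMM-normalized library size, and SE stands for standard error. Kidney replicates a1, labelled KO HFD, and a12, labelled WT HFD, were closer than sampling noise allows (a median chi-square of 0.0269 against 0.455 from noise alone, with every other pair at 1.62 or more), and so were aorta replicates R-1, labelled WT SFD, and R-12, labelled KO SFD (0.0277). Total counts were 48788716 in a1 and 48833447 in a12 (kidney median 24182781), and 36419598 in R-1 and 36452741 in R-12 (aorta median 19683938). Each such pair may be 1 library in 2 groups, and how the pairs arose was not tested. The named diet effects in kidney whose call changes without the kidney pair are therefore given both ways. Egfr, of which exon 1 is deleted, ranged from 47.8 to 64.5 FPM in both SFD groups of kidney, from 34.6 to 60.5 FPM in KO HFD and from 21.7 to 48.5 FPM in WT HFD, so the count of the whole gene did not separate the genotypes. In both tables, genes on chromosomes 9, MT, X and Y and on chromosome 8 after 97876154 held 0 counts in every library. Genes of the related lists, among them Kcnj1, Hsd11b2, Oxsr1, Fxyd2 and Avpr2, could therefore not be tested. In kidney, genes without counts numbered 1 in the thick ascending limb list, 2 in distal convoluted tubule and 3 in principal cells. They numbered 4 in WNK, SPAK and ubiquitin control, 1 in the sodium pump and 2 in corticosteroid-responsive genes, and lists can share a gene. The 10 genes lie outside these stretches, and all of them passed the expression filter in kidney. Kidney libraries had 10356 to 13244 FPM of proximal tubule markers in sum, against 255 to 380 FPM in aorta, and aorta libraries had 24976 to 40397 FPM of smooth muscle markers, against 78.7 to 130 FPM in kidney.

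In kidney the 10 genes spanned a wide range of levels. Per 1000 bases of the longest coding transcript, Umod was highest with 809 ± 131 FPM (SD, n = 20), followed by Slc12a3 with 260 ± 71.7 FPM and Slc12a1 with 180 ± 42.2 FPM. The ranges of Slc12a3 (165 to 414) and Slc12a1 (124 to 264) overlapped, and with the length of all exons in place of the transcript their order was the other way round (101 ± 27.8 and 148 ± 34.7 FPM). Wnk4 (39.7 ± 4.39 FPM), Wnk1 (26.8 ± 4.59 FPM), Scnn1a (22.6 ± 4.27 FPM), Sgk1 (21.5 ± 9.78 FPM) and Scnn1b (16.7 ± 2.12 FPM) followed, each with a range that overlapped the next. Scnn1g lay below them with 10.7 ± 1.08 FPM, and the receptor gene Nr3c2 was lowest with 2.24 ± 0.351 FPM. The range of Umod lay wholly above that of Slc12a3, the range of Slc12a1 above that of Wnk4, and the ranges of Scnn1g and Nr3c2 were each clear of their neighbours. With the length of all exons, Wnk1 was at 13.3 ± 2.28 FPM and Sgk1 at 13.6 ± 6.17 FPM, both below Scnn1b, and the range of Wnk1 (10.4 to 17.4) then overlapped that of Scnn1g (9.11 to 13).

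**Figure D1:**
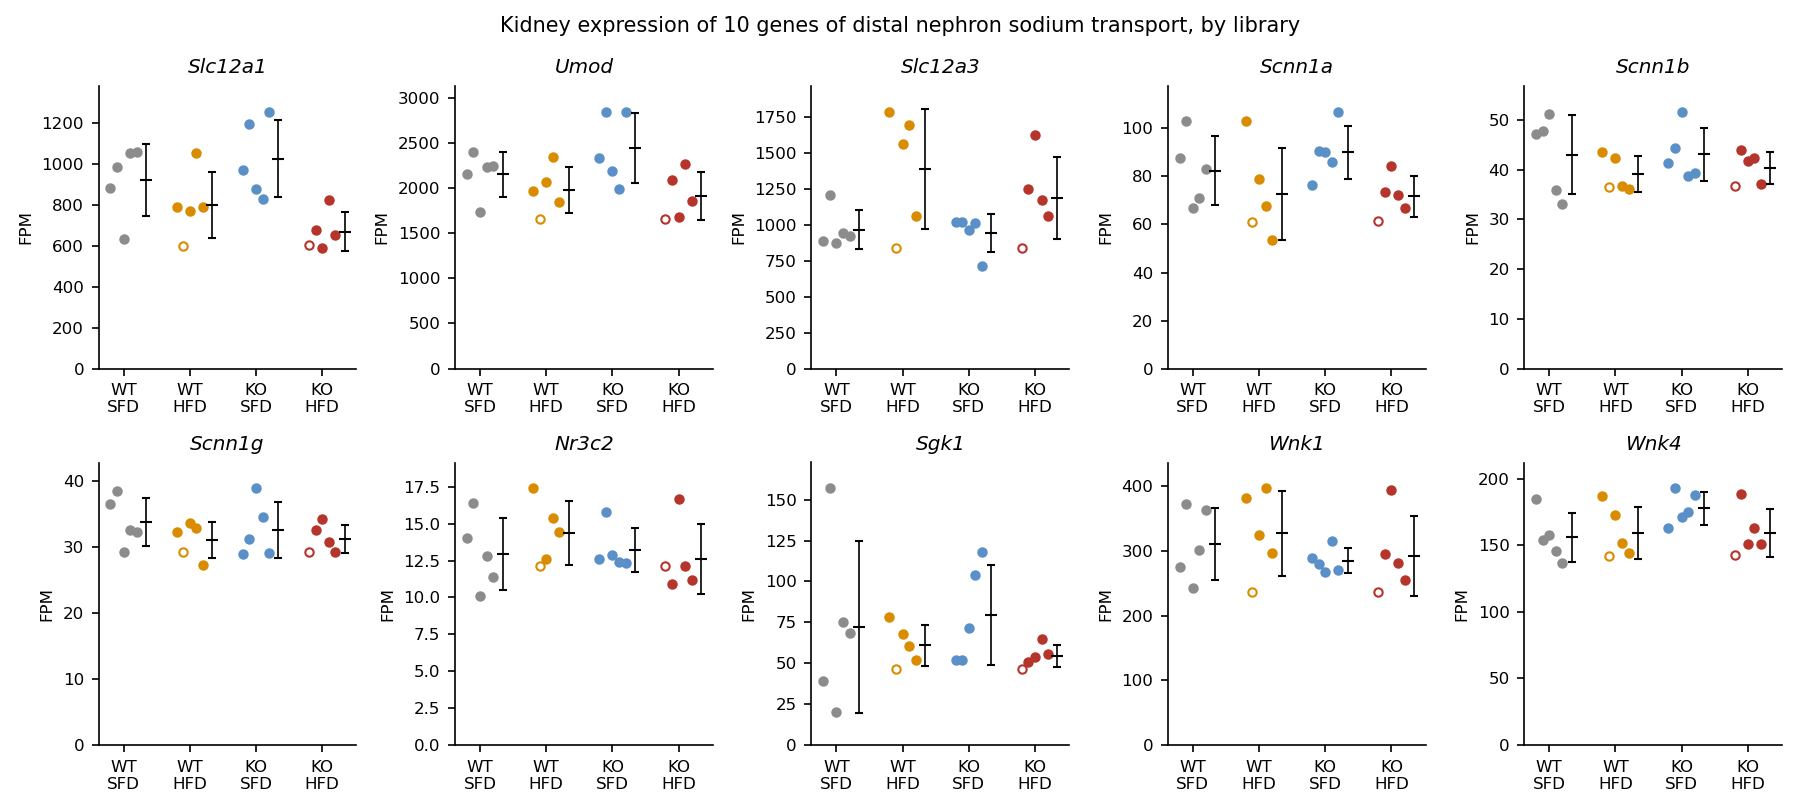
Kidney expression in FPM (vertical axes, each from 0) of the 10 genes in WT and KO mice under SFD or HFD. Each point is 1 library, open points are the near-identical libraries a1 and a12, and the bar to the right of each group is the mean with its SD (n = 5). Under HFD, Slc12a1 of KO mice lay between 590 and 823 FPM, below all KO SFD libraries, while Slc12a3 reached 1785 FPM in WT and 1620 FPM in KO.

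The question of the diet comparison is whether 18 weeks of HFD altered the expression of these genes, and whether it did so in each genotype. The cotransporter of the thick ascending limb was lower under HFD, and that of the distal convoluted tubule was higher. In WT mice, edgeR's quasi-likelihood test called 0 of the 10 genes at an adjusted p under 0.05, where it called 6.71% of the 15943 genes tested. An unadjusted p under 0.05 was found for 1 of the 10, against 19.4% of all genes, and the DESeq2 Wald test also called 0. In KO mice edgeR called 1 of the 10, Slc12a1, against 6.34% of all genes. There, 3 of the 10 had an unadjusted p under 0.05, against 19.5% of all genes. Over both genotypes edgeR called 2 of the 10, Slc12a1 and Slc12a3, against 16.4% of all genes. An unadjusted p under 0.05 was then found for 4 of the 10, against 29.9%. By edgeR's adjusted p, the shares of these genes were close to those of all genes. The DESeq2 Wald test also called Umod in KO and over both genotypes. The median log2 fold change of the 10 genes was -0.12 in WT, -0.12 in KO and -0.10 over both, and that of all genes was 0.00 in each. The libraries are from bulk tissue, so fewer cells of a type and less RNA per cell cannot be told apart.

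Slc12a1 (ENSMUSG00000027202, chromosome 2, 125152505 to 125230002) was lower under HFD, most clearly in KO mice. KO SFD libraries had 828, 878, 970, 1191 and 1253 FPM, and KO HFD libraries had 590, 601, 652, 675 and 823 FPM, so the groups did not overlap, although they came close at 823 and 828 FPM. The log2 fold change in KO was -0.62 (SE 0.16, adjusted p = 0.0191). In WT mice, SFD libraries had 633, 883, 984, 1051 and 1057 FPM and HFD libraries had 600, 767, 786, 788 and 1049 FPM. These groups overlapped over almost their whole range, and the log2 fold change was -0.21 (SE 0.16, adjusted p = 0.501). Over both genotypes it was -0.41 (SE 0.11, adjusted p = 0.0133). The difference between the genotypes, tested as an interaction, was -0.41 on the log2 scale with a 95% interval from -0.84 to 0.02 (adjusted p = 1.00), so an effect of HFD that is particular to KO was not shown. Without a1 and a12 the log2 fold change in KO was -0.58 (adjusted p = 0.0337) and that over both genotypes -0.35 (adjusted p = 0.0377). The call in KO was lost when a1 (adjusted p = 0.0524), a6 (0.0577) or a9 (0.0649) was left out alone.

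Umod (ENSMUSG00000030963, chromosome 7, 119462711 to 119479282, minus strand), which is made in the same cells, had smaller differences that did not pass the test. KO SFD libraries had 1996, 2195, 2341, 2844 and 2850 FPM, and KO HFD libraries had 1662, 1679, 1861, 2092 and 2275 FPM. The upper 2 HFD libraries lay inside the SFD range, and the log2 fold change was -0.35 (SE 0.12, adjusted p = 0.0947). In WT mice, SFD libraries had 1740, 2155, 2239, 2245 and 2402 FPM and HFD libraries had 1660, 1851, 1975, 2069 and 2346 FPM, and the log2 fold change was -0.12 (SE 0.12, adjusted p = 0.628). Over both genotypes the log2 fold change was -0.24 (SE 0.09, adjusted p = 0.0634). The DESeq2 Wald test called Umod in KO (adjusted p = 0.0457) and over both genotypes (adjusted p = 0.0320). In the edgeR fit the difference over both genotypes passed when a4 (adjusted p = 0.0415), a8 (0.0377), a14 (0.0428) or a18 (0.0337) was left out alone.

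Slc12a3 (ENSMUSG00000031766, chromosome 8, 94329201 to 94366214) moved the other way. WT SFD libraries had 871, 888, 923, 939 and 1207 FPM, and WT HFD libraries had 838, 1061, 1558, 1692 and 1785 FPM. The upper 3 HFD libraries lay above every SFD library, and the lowest, 838 FPM, is a12, 1 of the near-identical pair. The log2 fold change in WT was 0.52 (SE 0.19, adjusted p = 0.115), and without a1 and a12 it was 0.66 (adjusted p = 0.0120), past the threshold, as it was without a12 alone (0.66, adjusted p = 0.0221). In KO mice, SFD libraries had 712, 962, 1008, 1016 and 1020 FPM and HFD libraries had 840, 1062, 1170, 1245 and 1620 FPM. All HFD libraries but a1 lay above every SFD library there, and the log2 fold change was 0.33 (SE 0.19, adjusted p = 0.354). Over both genotypes the log2 fold change was 0.43 (SE 0.13, adjusted p = 0.0330), a 1.34-fold higher level, and 0.55 (adjusted p = 0.00158) without a1 and a12. That call was lost in 7 of the 20 fits that left out 1 library, those without a2, a3, a9, a11, a13, a14 or a16, with adjusted p-values from 0.0513 to 0.0637.

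**Figure D2:**
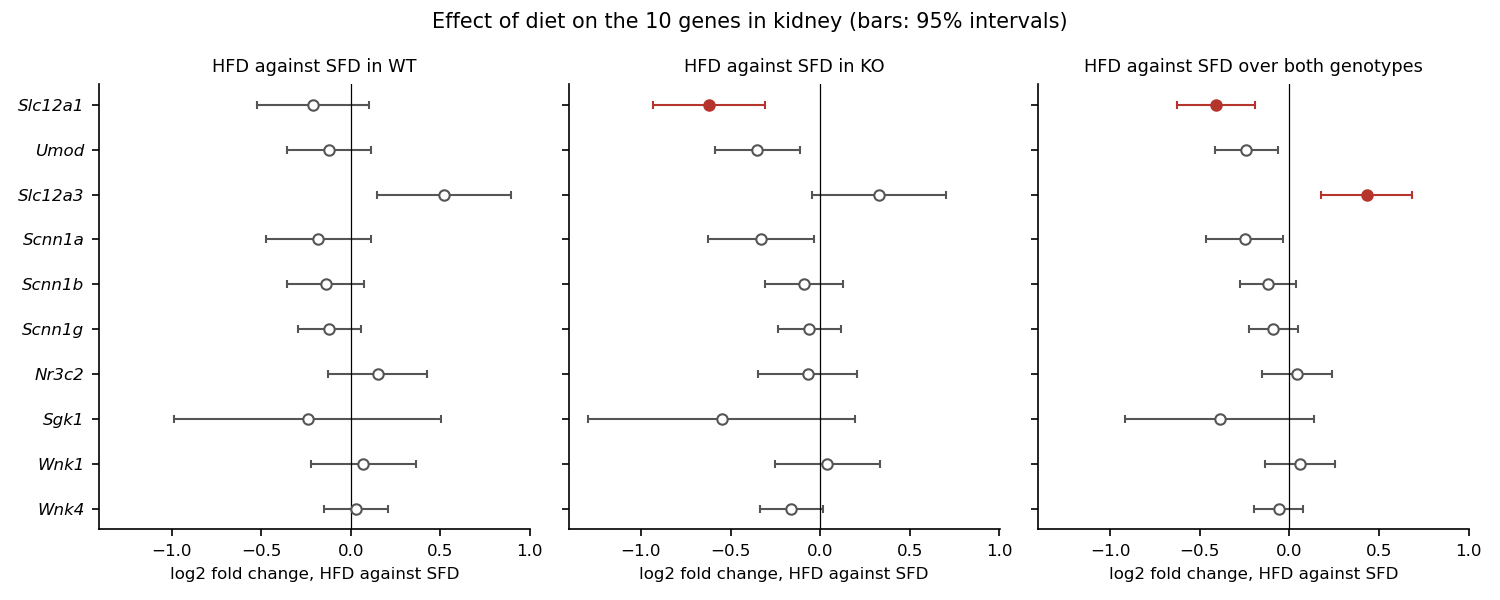
Log2 fold change of HFD against SFD (horizontal axis) for the 10 genes in kidneys of WT mice, KO mice and both genotypes together. Points are edgeR estimates, bars reach to the 95% limits, and filled points have an adjusted p under 0.05. Slc12a1 lay at -0.62 in KO and at -0.41 over both genotypes, Slc12a3 lay at 0.43 over both genotypes, and none of the other 8 genes was called.

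Other signals moved with diet or with single libraries, and their part in these results was not tested beyond the fits given here. Kidney replicates a8 and a9 (KO SFD) and a17 (WT SFD) had immediate-early gene scores of 3.48 to 3.97 (mean log2 difference from the average library), where the other 17 libraries reached at most 0.330. Of the 13 immediate-early genes tested, 8 were lower under HFD over both genotypes (16.4% of all genes were called), and none of these 3 libraries is an HFD library. Without a1 and a12, 0 of the 13 were called (14.7% of all genes). Without a8, a9 and a17, 0 of 12 were lower and 3 were higher (13.1% of all genes called). With the near-identical pair also left out, 0 were lower and 5 higher (12.4%). The list summed to 134 to 2405 FPM (SFD) and 167 to 258 FPM (HFD) in WT mice, and to 139 to 2544 FPM (SFD) and 144 to 222 FPM (HFD) in KO mice. Without the 3 libraries the log2 fold change of Slc12a1 over both genotypes was -0.39 (adjusted p = 0.0407) and in KO -0.59 (adjusted p = 0.0760), and that of Slc12a3 over both genotypes was 0.44 (adjusted p = 0.0563). Without these 3 and the near-identical pair, Slc12a1 was no longer called over both genotypes (-0.33, adjusted p = 0.0811) or in KO (-0.56, adjusted p = 0.10), while Slc12a3 was (0.55, adjusted p = 0.00248).

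Of 6 adipocyte markers, 1, Lep, was higher under HFD over both genotypes, where 16.4% of all genes were called. The markers summed to 2.06 to 69.3 FPM (SFD) and 6.83 to 51.4 FPM (HFD) in WT mice, and to 0.413 to 22.5 FPM (SFD) and 1.33 to 111 FPM (HFD) in KO mice. With their score as a covariate, the log2 fold change over both genotypes was -0.46 for Slc12a1 (adjusted p = 0.0154) and 0.38 for Slc12a3 (adjusted p = 0.115). Of 7 genes of the renal medulla, a list added after the values had been seen, 1 was lower under HFD over both genotypes (16.4% of all genes were called). The 7 genes summed to 302 to 480 FPM (SFD) and 269 to 387 FPM (HFD) in WT mice, and to 310 to 523 FPM (SFD) and 232 to 331 FPM (HFD) in KO mice. The highest medulla score, 0.926, was that of a9. With this score as a covariate the values were -0.33 for Slc12a1 (adjusted p = 0.0222) and 0.35 for Slc12a3 (adjusted p = 0.0711). None of the 15 clock genes passed for diet, and with the clock score as a covariate Slc12a1 in KO was at -0.62 (adjusted p = 0.0182) and Slc12a3 over both genotypes at 0.43 (adjusted p = 0.0382).

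Because both cotransporters are counted in the same library, their ratio does not depend on scaling. The log2 ratio of Slc12a3 to Slc12a1 counts was -0.81, -0.22, 0.07, 0.13 and 0.28 in KO SFD libraries and 0.48, 0.51, 0.70, 0.88 and 1.46 in KO HFD libraries. The groups did not overlap, and the mean rose by 0.92 (two-sided exact permutation test, p = 0.00794, the smallest that 5 against 5 libraries can give, adjusted p = 0.0397 over 10 ratio tests). In WT mice the ratio was -0.20, -0.16, 0.01, 0.29 and 0.46 under SFD and 0.43, 0.48, 0.69, 1.02 and 1.18 under HFD. Only the highest SFD and the lowest HFD library crossed, and the difference of 0.68 did not pass after adjustment (exact permutation p = 0.0159, adjusted p = 0.0529). Without a1 and a12 the differences were 1.00 in KO and 0.75 in WT, where groups of 4 and 5 libraries gave exact permutation tests with adjusted p-values of 0.0794 and 0.106.

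The 2 genes of the thick ascending limb were compared in the same way. The log2 ratio of Umod to Slc12a1 was 1.19, 1.26, 1.27, 1.27 and 1.32 in KO SFD libraries and 1.47, 1.47, 1.51, 1.51 and 1.63 in KO HFD libraries, without overlap. The mean rose by 0.26 (exact permutation p = 0.00794, adjusted p = 0.0397), so within KO libraries the 2 genes were not lowered in proportion. In WT libraries it was 1.09, 1.09, 1.29, 1.29 and 1.46 under SFD and 1.16, 1.23, 1.33, 1.43 and 1.47 under HFD, a difference of 0.08 (exact permutation p = 0.357, adjusted p = 0.510). Without a1 and a12 the difference in KO was 0.27 (exact permutation, adjusted p = 0.0794). In KO, leaving out any 1 of the 10 libraries except a7 gave an adjusted p of 0.0529 for both ratios, since 4 against 5 libraries cannot give an exact permutation p below 0.0159. Without a7 the ratio of Slc12a3 to Slc12a1 in WT (0.68) and that of Scnn1g to Scnn1a in KO (0.34) also passed (exact permutation, adjusted p = 0.0397 for both). Whether the ratios respond differently in the 2 genotypes was not tested. The other 3 ratios, of Scnn1b and Scnn1g to Scnn1a and of Wnk4 to Wnk1, did not pass in either genotype; the nearest was Scnn1g to Scnn1a in KO, higher by 0.28 on the log2 scale under HFD (exact permutation p = 0.0238, adjusted p = 0.0595). The ratios were chosen with earlier results of these data known.

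**Figure D3:**
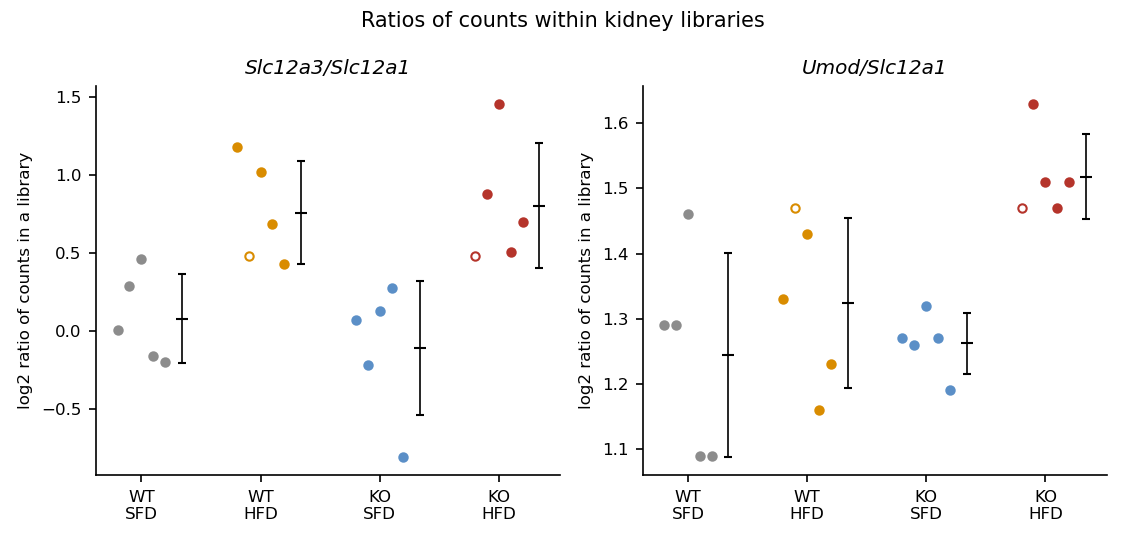
Log2 ratio of counts within each kidney library (vertical axes) for Slc12a3 to Slc12a1 and Umod to Slc12a1, by genotype and diet. Points are libraries, open points are a1 and a12, and the bar to the right of each group is the mean with its SD (n = 5). In KO mice the HFD libraries, from 0.48 to 1.46 and from 1.47 to 1.63, lay above all SFD libraries in both ratios.

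The subunits of the epithelial sodium channel did not pass the test in any diet comparison. Scnn1a (ENSMUSG00000030340, chromosome 6, 125320659 to 125344943), the alpha subunit, had 76.6, 85.9, 90.3, 90.6 and 107 FPM in KO SFD and 61.5, 66.8, 72.1, 73.6 and 84.5 FPM in KO HFD. All but 1 of these HFD libraries lay below the SFD range, and the log2 fold change was -0.33 (SE 0.15, adjusted p = 0.229). In WT the libraries ranged from 66.8 to 103 FPM under SFD and from 53.5 to 103 FPM under HFD, and the log2 fold change was -0.18 (SE 0.15, adjusted p = 0.556). Over both genotypes it was -0.25 (SE 0.11, adjusted p = 0.109). Leaving out a11, the highest WT HFD library, gave -0.33 and a call (adjusted p = 0.0176), and leaving out a8, a9 and a17 gave -0.17 (adjusted p = 0.370).

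Scnn1b (ENSMUSG00000030873, chromosome 7, 121865038 to 121918514), the beta subunit, ranged from 33.1 to 51.3 FPM under SFD and 36.1 to 43.6 FPM under HFD in WT mice, and from 38.7 to 51.7 FPM under SFD and 36.8 to 44.0 FPM under HFD in KO mice. Its log2 fold change over both genotypes was -0.12 (SE 0.08, adjusted p = 0.348). Scnn1g (ENSMUSG00000000216, chromosome 7, 121734479 to 121768475), the gamma subunit, was the steadiest of the 3, with 27.3 to 38.9 FPM over all libraries. Its log2 fold change was -0.09 (SE 0.07, adjusted p = 0.385), with a 95% interval from -0.22 to 0.04. The 2 genes lie near each other on chromosome 7.

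Of the regulators, none passed the test of diet in kidney. Nr3c2 (ENSMUSG00000031618, chromosome 8, 76899442 to 77245012), the mineralocorticoid receptor, ranged from 10.1 to 17.4 FPM over the 20 libraries. Group means (± SD, n = 5) were 12.9 ± 2.41 and 14.4 ± 2.15 FPM in WT mice on SFD and HFD, respectively, and 13.2 ± 1.48 and 12.6 ± 2.35 FPM in KO mice. The log2 fold change over both genotypes was 0.04, with a 95% interval from -0.15 to 0.24.

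Sgk1 (ENSMUSG00000019970, chromosome 10, 21882184 to 21999903) varied most between libraries. WT SFD libraries had 20.1, 38.9, 68.3, 75.5 and 157 FPM and KO SFD libraries had 51.7, 52.1, 71.5, 104 and 118 FPM, while WT HFD libraries had 46.4, 52.1, 60.5, 68.0 and 78.0 FPM and KO HFD libraries had 46.3, 50.9, 54.1, 55.9 and 64.7 FPM. The 3 highest libraries, with 157, 118 and 104 FPM, were a17, a9 and a8, those with high immediate-early genes. The log2 fold change over both genotypes was -0.39 (SE 0.27, adjusted p = 0.351), and without these 3 libraries it was 0.09 (adjusted p = 0.837), with the opposite sign.

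Wnk1 (ENSMUSG00000045962, chromosome 6, 119923969 to 120038672, minus strand) ranged from 236 to 397 FPM and Wnk4 (ENSMUSG00000035112, chromosome 11, 101260567 to 101277409) from 137 to 193 FPM over the 20 kidneys. For Wnk1 the log2 fold change over both genotypes was 0.06 (SE 0.10, adjusted p = 0.758), with a 95% interval from -0.15 to 0.26. For Wnk4 it was -0.06 (SE 0.07, adjusted p = 0.581), with a 95% interval from -0.19 to 0.07. The kidney is known to make a short form of Wnk1 without kinase activity from an internal start, and counts per gene do not separate it from the long form.

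The question of the genotype comparison is whether loss of endothelial EGFR altered these genes. The test called 0 of the 10 under SFD, under HFD and over both diets, where it also called 0% of all genes in each (426, 546 and 768 genes had an unadjusted p under 0.05), and 0 of the 10 in the interaction of diet and genotype (0% of all genes, 285 at an unadjusted p under 0.05). None of the 10 had an unadjusted p under 0.05 in any of these 4 comparisons, and the DESeq2 Wald test called none of them. Log2 fold changes of KO against WT ranged from -0.13 to 0.19 under SFD, from -0.26 to 0.05 under HFD and from -0.15 to 0.09 over both diets. The largest under SFD was that of Wnk4, with 137, 146, 154, 158 and 185 FPM in WT and 163, 171, 175, 188 and 193 FPM in KO, and its log2 fold change was 0.19 (SE 0.09, adjusted p = 1.00). Under HFD the largest was that of Slc12a1, at -0.26 (SE 0.16, adjusted p = 0.814). For Slc12a3 the interval over both diets ran from -0.39 to 0.13, and for Sgk1 it was the widest, from -0.54 to 0.51.

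Genes of the same segments, from lists written with earlier results of these data known, were read in the same fit. Of the 12 other genes tested from the thick ascending limb list, 4 fell and 0 rose over both genotypes, where 16.4% of all genes passed, and 4 fell in KO, where 6.34% of all genes did. In WT, 0 passed. For comparison, 4 of the 10 proximal tubule markers passed over both genotypes, 2 higher and 2 lower, and no test compared the lists. Without a1 and a12, 4 of the 12 thick ascending limb genes fell over both genotypes (14.7% of all genes called) and 2 in KO (5.49%). Without a8, a9 and a17, 4 fell over both genotypes (13.1% of all genes called) and 1 in KO (3.57%). The 14 genes of the list that were tested, Slc12a1 and Umod included, had a median log2 fold change of -0.32 over both genotypes. Egf, the epidermal growth factor made by this segment, had means of 1229 ± 161 FPM in KO SFD and 816 ± 87.1 FPM in KO HFD (SD, n = 5). In WT the means of Egf were 1207 ± 225 FPM under SFD and 977 ± 212 FPM under HFD, and edgeR did not call it (-0.31, adjusted p = 0.258). Its log2 fold change over both genotypes was -0.45 (SE 0.10, adjusted p = 0.00481). Kcnt1, a sodium-activated potassium channel, fell by 0.87 (SE 0.16, adjusted p = 0.000724), Irx1, a transcription factor of nephron segments, by 0.52 (SE 0.11, adjusted p = 0.00284), and Cldn19, a tight junction protein of this segment, by 0.46 on the log2 scale (SE 0.12, adjusted p = 0.0131). Kcnt1 was lower than every KO SFD library in every KO HFD library (7.09 to 12.9 against 18.6 to 37.9 FPM).

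Of the 12 other genes tested from the distal convoluted tubule list, 3 rose and 0 fell over both genotypes, against 16.4% of all genes called in either direction. Without a1 and a12, 4 rose and 0 fell (14.7% of all genes called). The same counts were found without a8, a9 and a17 (13.1%). Pvalb, the calcium-binding protein parvalbumin, which marks the early part of this segment, rose from 11.8 to 43.7 FPM in WT SFD to 44.7 to 69.9 FPM in WT HFD and from 15.1 to 29.4 FPM in KO SFD to 58.9 to 80.9 FPM in KO HFD, without overlap in either genotype. Its log2 fold change was 1.27 in WT (SE 0.26, adjusted p = 0.00580) and 1.63 in KO (SE 0.27, adjusted p = 0.000736). Kcnj16, a basolateral potassium channel subunit, rose by 0.44 over both genotypes (SE 0.06, adjusted p = 4.62e-05), again without overlap in either genotype. Slc8a1, a sodium-calcium exchanger, rose by 0.58 (SE 0.16, adjusted p = 0.0154). The median log2 fold change of the 13 genes tested, Slc12a3 included, was 0.21 over both genotypes, with a range from -0.18 to 1.45.

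**Figure D4:**
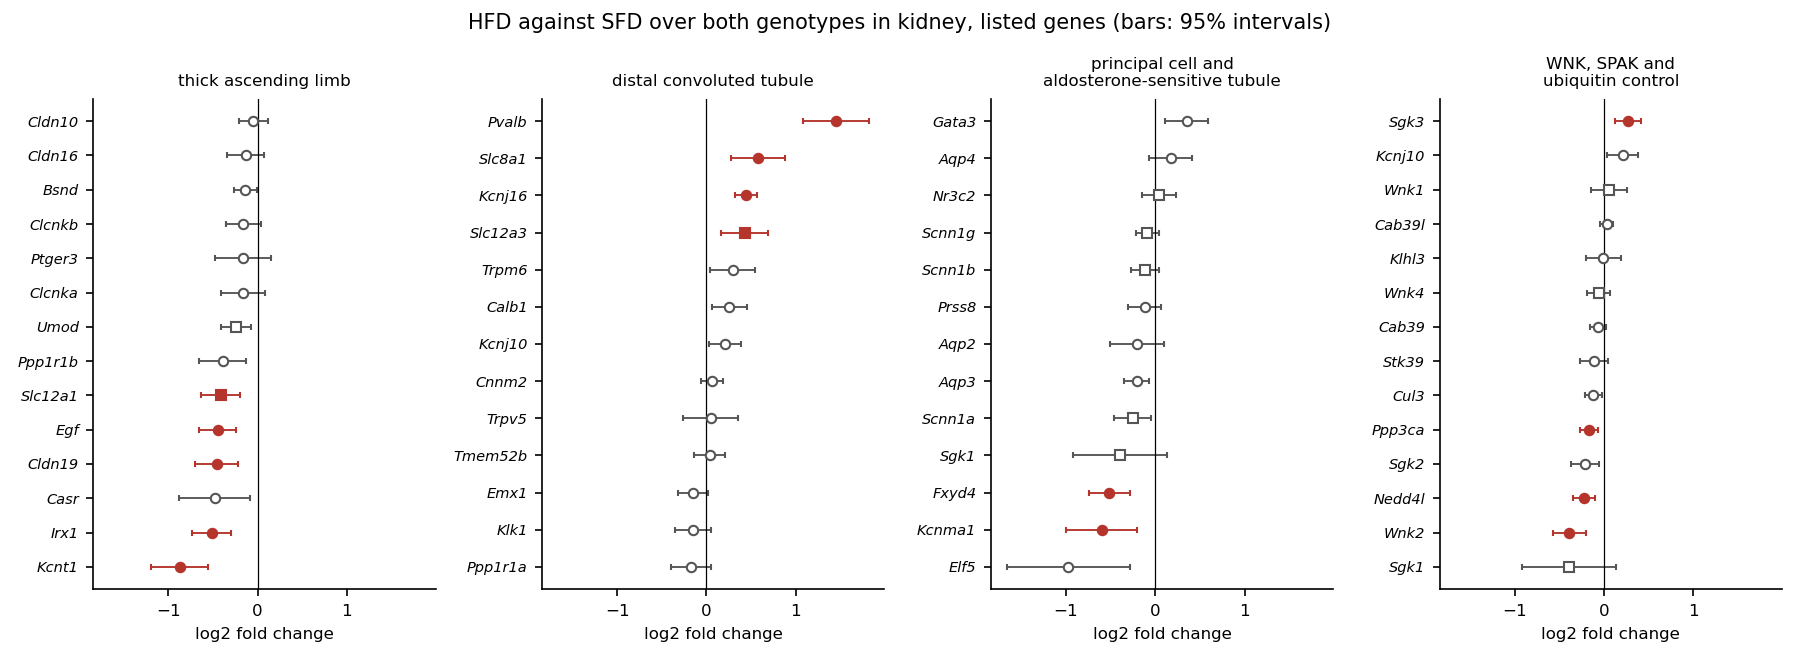
Log2 fold change of HFD against SFD over both genotypes in kidney (horizontal axis) for the tested genes of 4 lists, ordered by value. Squares are genes of the 10, circles are other listed genes, bars are 95% intervals, and filled symbols have an adjusted p under 0.05. The called genes of the thick ascending limb list lie below 0 and those of the distal convoluted tubule list above 0, with Pvalb highest at 1.45.

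Of 8 other genes tested from the list of principal cells and the aldosterone-sensitive tubule, 2 fell and 0 rose over both genotypes (16.4% of all genes). They were Fxyd4, a regulator of the sodium pump, which fell by 0.51 (SE 0.12, adjusted p = 0.00402), and Kcnma1, a calcium-activated potassium channel, which fell by 0.60 (SE 0.20, adjusted p = 0.0491). Among 11 other genes of WNK, SPAK and ubiquitin control, 3 fell and 1 rose over both genotypes (16.4% of all genes called). Without a1 and a12 the counts were the same (14.7% of all genes called). Without a8, a9 and a17, 1 fell and 1 rose (13.1%). Wnk2, at 4.09 ± 0.0854 FPM in WT SFD and 2.96 ± 0.434 FPM in WT HFD (SD, n = 5), fell by 0.39 over both genotypes (SE 0.09, adjusted p = 0.00624). In KO it was at 3.77 ± 0.571 FPM under SFD and 3.01 ± 0.389 FPM under HFD, and edgeR did not call it (-0.32, adjusted p = 0.179). Nedd4l, the ubiquitin ligase that removes the sodium channel from the membrane, fell by 0.23 (SE 0.06, adjusted p = 0.0164), and Ppp3ca, a subunit of calcineurin, by 0.17 (SE 0.05, adjusted p = 0.0324). Sgk3, a kinase related to Sgk1, rose by 0.26 (SE 0.07, adjusted p = 0.0186). The call of Kcnma1 was lost without a1 and a12 (-0.42, adjusted p = 0.108) and without a8, a9 and a17 (-0.65, adjusted p = 0.0738). Of the 8 genes from the principal cell list, 2 fell and 1 rose without a1 and a12 (14.7% of all genes called). Of the same 8, 1 fell and 0 rose without a8, a9 and a17 (13.1%). The calls of Nedd4l (-0.20, adjusted p = 0.0778) and Ppp3ca (-0.15, adjusted p = 0.150) were lost without a8, a9 and a17.

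Of the 6 genes of the basolateral sodium pump tested, 1 passed over both genotypes, where 16.4% of all genes were called. It was Fxyd4, already counted in the list of principal cells. Atp1b1, a subunit of the pump, was at -0.10 on the log2 scale. Of 10 other corticosteroid-responsive genes, 3 fell and 1 rose over both genotypes, against 16.4% of all genes called. Ddit4, a stress-induced inhibitor of mTOR signalling, fell by 1.03 (SE 0.18, adjusted p = 0.000504), Mt1, a metallothionein, fell by 1.00 (SE 0.29, adjusted p = 0.0224), and Zfp36, which is also an immediate-early gene, fell by 1.84 (SE 0.59, adjusted p = 0.0407). Lcn2, a protein released by injured tubules, rose by 0.89 (SE 0.29, adjusted p = 0.0367). Its level was low, at 0.899 to 2.32 FPM in WT SFD and 1.68 to 4.89 FPM in WT HFD. In KO it had 1.48 to 3.70 FPM under SFD and 1.09 to 5.65 FPM under HFD. The groups overlapped, and edgeR did not call it in WT (adjusted p = 0.153) or KO (adjusted p = 0.316). Fkbp5, a common reporter of corticosteroid receptor activity, was at -0.19 and did not pass. Without a8, a9 and a17, the libraries with high immediate-early genes, the values were -0.66 for Ddit4 (adjusted p = 0.00209), -0.52 for Mt1 (adjusted p = 0.184), 0.23 for Zfp36 (adjusted p = 0.112) and 1.19 for Lcn2 (adjusted p = 0.0141). Without a1 and a12 the calls of Zfp36 (adjusted p = 0.0977) and Lcn2 (adjusted p = 0.0706) were lost. Over both diets, 0 genes of these 6 lists passed for KO against WT.

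Across the kidney libraries, taken as 19 points with a1 and a12 averaged, the genes whose log2 FPM followed each of the 10 most closely were named by Pearson's r, as a description of libraries that share diet, genotype and tissue composition. Slc12a1 and Umod were each other's closest gene among all genes tested (r = 0.921). Pcsk6 came next for Slc12a1 (r = 0.919) and Sim2 for Umod (r = 0.888). For Slc12a3 they were Exoc3l4 (r = 0.917) and Sfrp1 (r = 0.887), and for Scnn1b they were Rhcg, an ammonia channel of the collecting system (r = 0.777), and Cyp4f15 (r = 0.774). Scnn1a was followed by Ptbp2 (r = 0.839) and Slc1a5 (r = 0.838), and Scnn1g by Dmrta2 (r = 0.778) and Gm16161 (r = 0.711). For the regulators the closest pairs were Myo19 (r = 0.851) and Tanc1 (r = 0.840) for Nr3c2, Ppp1r18 (r = 0.934) and Csnk1e (r = 0.918) for Sgk1, Mef2a (r = 0.928) and Asap2 (r = 0.916) for Wnk1, and Shd (r = 0.816) and R3hdm4 (r = 0.803) for Wnk4. Spearman's rho kept 6 of the 20 named genes among its own closest 2. By rho, Tmem207 (0.921) and Sim2 (0.912) were closest to Slc12a1, ahead of Umod (0.891). For Umod they were Tmem207 (0.896) and Slc12a1 (0.891).

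In aorta, the 4 regulators were counted in every library, and of the transporters and Umod only Scnn1a was. Umod and Scnn1g had 0 counts in all 20 aorta libraries, where a count of 0 allows up to 3 counts per library, Slc12a1 had at most 1 count, Scnn1b at most 2 and Slc12a3 at most 5. Scnn1a was counted 14 to 51 times per aorta library. Normalised together with kidney, Wnk4 was at 175 ± 20 FPM in kidney and 11.6 ± 3.98 FPM in aorta (SD, n = 20 each), without overlap, 15.4-fold lower in aorta (log2 difference -3.94, SE 0.12, adjusted p = 1.83e-27). Wnk1 was at 325 ± 53.5 FPM in kidney and 223 ± 52.9 FPM in aorta (log2 difference -0.55, SE 0.09, adjusted p = 1.27e-06). Nr3c2 went the other way, with 14.2 ± 2.16 FPM in kidney and 25.0 ± 5.10 FPM in aorta (log2 difference 0.82, SE 0.08, adjusted p = 3.70e-11). For both the ranges of the tissues overlapped. All 4 regulators passed this test, as did 86.5% of the 17514 genes tested. The tissues come as separate count tables, so tissue and any difference in how the tables were made cannot be told apart.

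Sgk1 was at 71.4 ± 32.3 FPM in kidney and 97.7 ± 46.7 FPM in aorta (SD, n = 20 each), a log2 difference of 0.41 (SE 0.18, adjusted p = 0.0347). The call did not hold without the near-identical libraries of both tissues (0.38, adjusted p = 0.0808), and in the WT SFD groups alone the sign was opposite (-0.24, adjusted p = 0.636).

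**Figure D5:**
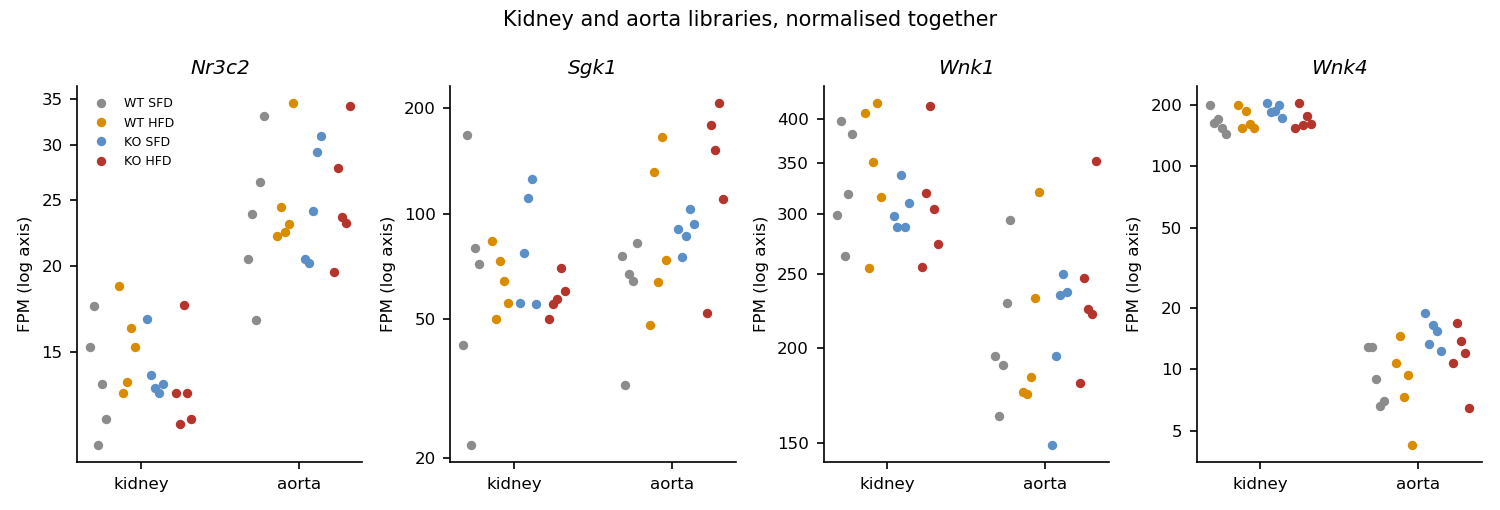
FPM (vertical log axes) of Nr3c2, Sgk1, Wnk1 and Wnk4 in 20 kidney and 20 aorta libraries normalised together. Points are libraries, coloured by genotype and diet. Wnk4 had 144 to 205 FPM in kidney and 4.23 to 18.9 FPM in aorta, while the ranges of the other 3 genes overlapped between the tissues.

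Within aorta, edgeR called 0 of the 4 regulators in every comparison, as did the DESeq2 Wald test. For HFD against SFD the shares of all 15122 genes tested were 0.0132% in WT, 0% in KO and 0.0529% over both genotypes. For KO against WT they were 0% under SFD, 0% under HFD and 0.0198% over both diets, and for the interaction 0%. The unadjusted p was under 0.05 for 1 of the 4 in HFD against SFD over both genotypes (Sgk1), against 6.70% of all genes. In KO against WT it was under 0.05 for 2 over both diets (Wnk4 and Sgk1, against 8.78% of all genes) and for 1 under SFD (Wnk4, against 2.28%). In WT mice, Sgk1 had 34.7, 69.7, 71.3, 82.5 and 87.2 FPM under SFD and 51.5, 68.5, 78.4, 144 and 175 FPM under HFD. In KO mice it had 81.8, 94.6, 96.2, 101 and 111 FPM under SFD and 54.8, 118, 162, 192 and 222 FPM under HFD. The groups overlapped, and the log2 fold change for HFD over both genotypes was 0.60 (SE 0.24, adjusted p = 0.622). The library with 222 FPM, R-19, also had the highest immediate-early gene score in aorta, 2.66. Immediate-early genes summed to 623 to 2993 FPM (SFD) and 1267 to 4359 FPM (HFD) in WT aortas and to 1727 to 3784 FPM (SFD) and 1568 to 17530 FPM (HFD) in KO aortas, with 0 of 13 called, and their part in the Sgk1 values was not tested.

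Wnk4 had 7.15, 7.37, 9.52, 13.8 and 14 FPM in WT SFD aortas and 13.4, 14.6, 16.6, 18.1 and 20.1 FPM in KO SFD aortas. All but 1 of the KO libraries lay above the WT range, and the log2 fold change under SFD was 0.67 (SE 0.29, adjusted p = 1.00). Over both diets it was 0.52 (SE 0.20, adjusted p = 0.494), and without the near-identical pair of aortas 0.61 (adjusted p = 0.290). The highest KO SFD library, R-11, had a score of 3.54 for lymphoid markers and a clock score of 3.32. R-16 (KO HFD), at 11.3 FPM of Wnk4, had a lymphoid score of 3.79, where the third highest in aorta was 1.05. The part of these signals in the Wnk4 values was not tested beyond the alternatives run. Wnk1 and Nr3c2 had log2 fold changes of 0.10 and 0.04 for HFD over both genotypes and of 0.09 and 0.04 for KO over both diets, with standard errors of 0.13 to 0.15.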

How the data were processed

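RNA of 20 kidneys and 20 aortas was analysed as 2 tables of counts per gene, which the authors deposited as whole numbers without normalization. They were sequenced by the authors as paired-end reads, mapped to mouse GRCm38/mm10 and counted with featureCounts. For mapping, TopHat2 is named in the methods and HISAT2 2.1.0 in the submitters' processing notes. Strand setting and the treatment of reads with several positions are not given in the sources used here. The study gives 5 per group and counts animals or vessels as n, so p-values measure the spread between these libraries.

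All 20 libraries of a tissue entered 1 fit across genes. TMM normalization, filterByExpr by group, robust quasi-likelihood estimation and glmQLFTest of edgeR 4.0.16 (R 4.3.3) were used, with Benjamini-Hochberg adjustment over all genes tested (15943 in kidney, 15122 in aorta), and a gene was called at an adjusted p under 0.05. The tissue contrast was a joint fit of all 40 libraries on genes held by both tables. Log2 fold changes are edgeR's, with 95% intervals from their standard errors. Ratios of counts within a library were compared by two-sided exact permutation tests (scipy 1.17.1). Likeness was Pearson's r of log2(FPM + 0.1). Lengths, positions and promoters came from GENCODE M21 and RefSeq annotation of GRCm38. Scores are the mean log2 difference of a list's genes from the average library. For the clock score, this mean over Arntl, Npas2, Clock, Cry1 and Nfil3 was subtracted from that over the other clock genes. Named genes were the 10 members, up to 15 other listed genes with the smallest adjusted p among those called in a kidney diet comparison, and the 2 genes most like each member; other listed genes named beside them (Kcnma1, Zfp36, Lep, Atp1b1 and Fkbp5) were added after their values were seen. The members and lists were chosen with earlier results of these data known. Alternatives were no filter, the Wald test of DESeq2 1.42.0, its size factors in edgeR, no robust estimation, a fold change over 1.5 with a group mean over 5 FPM, fits of 2 groups alone, scores as covariates, and leaving out libraries singly or together; adipocyte and medulla scores in kidney and the fits of listed genes without libraries were added after the data were seen. The fits were tested on simulated data. Proteins, isoforms and reads were not analysed here.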

Additional observations from a re-analysis of the deposited data

Results flagged for a closer look

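Among 76 groups of 5 libraries (each gene and ratio in each group of genotype and diet), 7 held a library farther from the others than Dixon's 95% limit for 5 values (0.71 of the range), and chance flags about 1 in 20 groups. Slc12a3 was at 1207 FPM in the WT SFD kidney a17, where the others had 871 to 939, and at 712 FPM in the KO SFD kidney a9, where the others had 962 to 1020; both are libraries with high immediate-early genes. Nr3c2 was at 15.8 FPM in the KO SFD kidney a6 (others 12.3 to 12.9), at 16.7 FPM in the KO HFD kidney a3 (others 10.9 to 12.1) and at 36.7 FPM in the WT HFD aorta R-10 (others 23.7 to 26.6). The log2 ratio of Umod to Slc12a1 was 1.63 in the KO HFD kidney a2 (others 1.47 to 1.51), and that of Wnk4 to Wnk1 was -1.38 in the KO HFD kidney a3 (others -0.785 to -0.646). No member had a diet effect that differed between the genotypes by the interaction test.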

How the results depend on the processing

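No paired analysis was possible because the replicate numbers of the labels run on through all groups of a tissue and no number occurs in 2 groups. In WT, 1 gene, Slc12a3, was called for HFD without a1 and a12, with a8, a9 and a17 kept or left out; in KO, 0 were called without a8, a9 and a17, alone or with a1 and a12, and 2 by the DESeq2 Wald test. Over both genotypes 1 of 2 calls was left without a filter, with the adipocyte or the medulla score, and without a8, a9 and a17, alone or with a1 and a12; 0 passed a fold change over 1.5. The ratio tests gave 0 calls without a1 and a12, where the smallest exact p is 0.0159. With 1 library left out, calls ranged from 0 to 1 in WT, from 0 to 1 in KO, from 1 to 3 over both genotypes and from 0 to 4 for ratios. The DESeq2 Wald test called 3 over both genotypes, and 3 of 4 regulators differed between tissues in WT SFD alone and without the near-identical libraries; the counts of the other comparisons were the same under every alternative run. Effects that were not called changed sign as follows. Without a8, a9 and a17, Sgk1 was at 0.27 in WT and 0.09 over both genotypes, and without a1 and a12 too at 0.35 and 0.15. With the adipocyte score, Wnk1 was at -0.06 in KO and -0.01 over both, and Nr3c2 at -0.02; with the medulla score Wnk1 was at -0.01 in KO. In aorta with the adipocyte score, Nr3c2 and Wnk1 were at -0.12 and -0.08 for HFD and at -0.07 and -0.04 for KO, and without R-1 and R-12 Nr3c2 was at -0.02 for HFD. For the tissue contrast, Sgk1, which was called over all libraries, was at -0.24 in WT SFD alone. With 1 library left out, kidney diet effects ranged from -0.46 to 0.27 (Sgk1, WT), -0.03 to 0.10 (Wnk4, WT), -0.10 to 0.01 (Scnn1g, KO), -0.18 to 0.01 (Nr3c2, KO), -0.08 to 0.11 (Wnk1, KO), -0.01 to 0.10 (Nr3c2, both) and 0.00 to 0.11 (Wnk1, both), Nr3c2 in aorta from -0.03 to 0.11 for HFD and from -0.02 to 0.11 for KO, and in WT the ratios of Wnk4 to Wnk1 from -0.14 to 0.07 and of Scnn1b to Scnn1a from -0.02 to 0.21. The cause of these changes was not tested.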
